A study of Mus musculus with 335 samples.

Results

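Lung metastases and primary mammary tumours of the same MMTV-PyMT mice in the BL6 background were compared in 13 of the 335 RNA-seq libraries of the series. The libraries were chosen by title, as PyMT in C57BL6 or C57BL6N from mice with both tissues. They comprised 8 metastasis libraries and 5 tumour libraries from 5 mice, named in the deposited table as ms9777, ms9780, ms9781, ms9791 and ms9792. Mice ms9781, ms9791 and ms9792 gave 2 metastatic nodules each, which were averaged per mouse, so that the mouse was the unit of every test. All 5 mice carried PyMT, the polyoma virus middle T antigen, under MMTV, the mouse mammary tumour virus promoter, which is active mainly in mammary epithelium, and none was treated. Mouse ms9780 is titled BL6N and the other 4 mice BL6, and the labels give neither age nor sex. Tumours therefore arose in the animals themselves, and no animal without the oncogene stands among these 13 libraries. Healthy lung of 4 FVB mice without an oncogene served as a reference for lung RNA. Lung labelled tumour adjacent, from 5 FVB mice with PyMT, was set beside it for airway genes and small structured RNA only. MMTV-PyMT mice labelled FVB (12 mice with both tissues, 35 libraries) and BL10 (6 mice, 12 libraries) were used to compare host strains.

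PyMT is a membrane-bound viral protein that recruits Src kinases, phosphatidylinositol 3-kinase and Shc, and mammary tumours driven by it spread to the lung. A piece of such a metastasis can hold tumour epithelium, its own stroma and the lung around it. Alveolar type 2 cells of the lung make surfactant, alveolar type 1 cells form the thin gas-exchange surface, and club cells of the airways secrete secretoglobins. Fibroblasts of a mammary tumour lay down fibrillar collagen, which is bound and ordered by small leucine-rich proteoglycans such as lumican and decorin.

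Values were the deposited RPKM, in which the reads of a gene are scaled by its transcript length and by all counted reads of the library, so levels can be set side by side between genes. The libraries held 23323250 to 50261794 counted reads, with a median of 33199625, and 1 read in a transcript of 1 kilobase equalled 0.0199 to 0.0429 RPKM. Mammary identity was checked first. The luminal keratins Krt8 and Krt18 stood at 307 ± 36.9 and 353 ± 69.7 RPKM in metastases, at 358 ± 83.8 and 429 ± 173 in tumours (SD, n = 5 mice), and at 63.8 and 42.4 in healthy lung. Summed over 19 luminal mammary genes, metastases held 1515 to 2241 RPKM, tumours 1794 to 2467 and healthy lungs 534 to 575.7. Tumour RNA was eluted in a larger volume than metastasis RNA, so that step and the tissue cannot be told apart.

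The 2 unpaired BL6 libraries went against their titles. The library titled as a metastasis of mouse ms9783 held 0.364 RPKM of the surfactant gene Sftpc and 20.9 of Lum, both within the range of the paired tumours. The other library is titled as a tumour of a mouse with another number and held 607 RPKM of Sftpc, 0.277 of Lum and 0.0253 of Lrrc15, values within the range of the paired metastases for each of these 3 genes. In the deposited table the column of the second library carries the name ms9783 as well. Neither library enters a result below except where named, and no sample was moved to another group.

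Differences between tissues were fitted on log2(RPKM + 1) with limma, with the mouse as a block, and a gene was called at a Benjamini-Hochberg adjusted p under 0.05. Of 11214 genes tested, 73 were called, or 0.651%. Of these, 44 were higher in metastases (0.392% of genes tested) and 29 lower (0.259%), and 1490 genes had an unadjusted p under 0.05. All 73 moved the same way in each of the 5 mice, and 72 moved by at least 2-fold on this scale. Per-mouse values of the tissues did not overlap in 38 of the genes called higher and 19 of those called lower, where 2.48% of all tested genes showed no overlap. The median difference of all genes was -0.09. With 5 pairs an exact two-sided sign-flip test of 1 gene cannot go below 0.0625, so each call rests on the fit across all genes.

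Single animals and the unpaired libraries moved this count. It was 156 without mouse ms9777, 36 without ms9781, 31 without ms9791 and 25 without ms9792, and 53 in the 4 mice titled BL6, without ms9780. With both unpaired libraries added as titled, limma without the mouse block called 0 genes, and 6.73% of the 11214 had an unadjusted p under 0.05. With them joined as a sixth pair under the name ms9783, each with its tissue as titled, it called 0 genes with 7.78% at that level. Both libraries held Sftpc and Lum at levels opposite to their titles, so these counts of 0 do not measure how firm the calls in the 5 pairs are. All 73 genes kept their direction in each fit of this paragraph. For the fits without 1 mouse this was fixed in advance, since each gene moved the same way in all 5 mice. The call itself held in all 5 fits without 1 mouse for 18 of the 73 genes, 9 higher and 9 lower. The 9 lower genes were Lum, C1qtnf3, Cilp, Lrrc15, Col1a1, Col1a2, Cpxm2, Thbs2 and Cldn2, and the 9 higher genes include Sftpb, Ager, Cldn18, Sec14l3, Scgb3a1, Ces1d and Id1. Each of the other 55 called genes lost its call without at least 1 mouse.

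**Figure D1:**
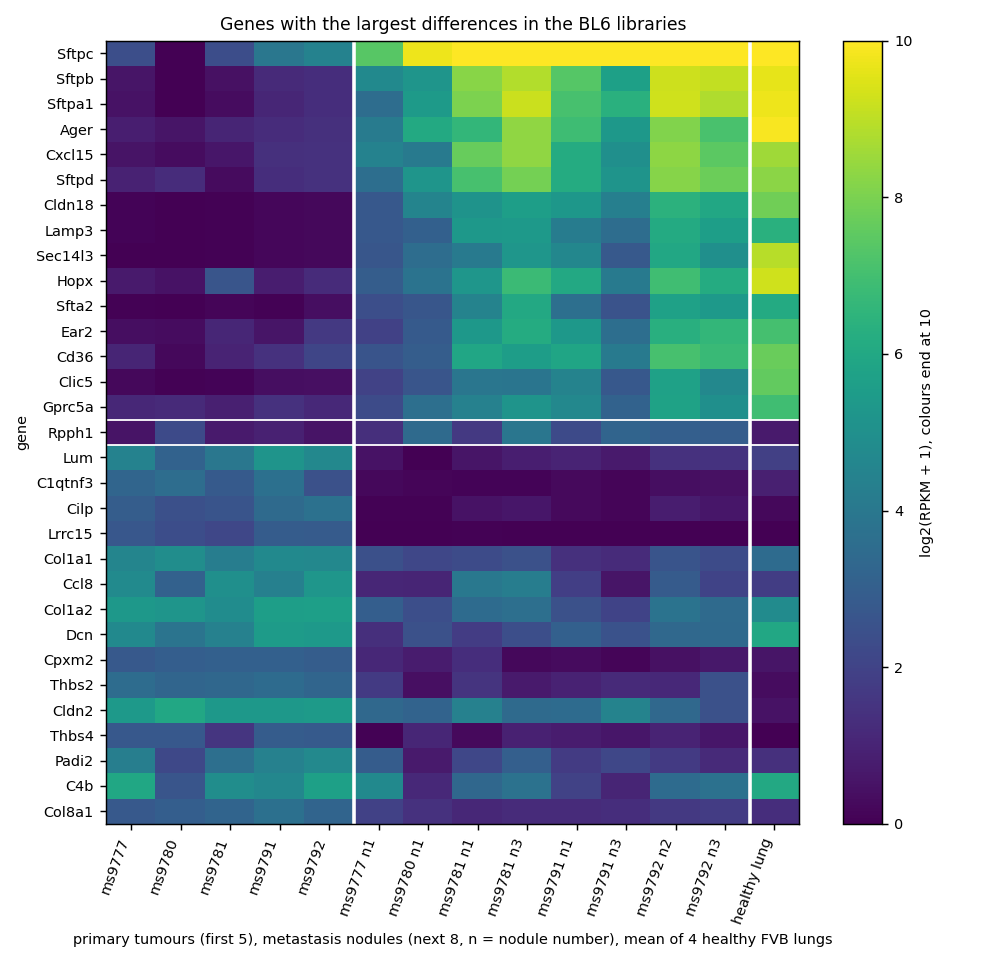
Heat map of log2(RPKM + 1) for the genes with the largest differences, 5 tumours at left, 8 metastasis nodules in the middle and the mean of 4 healthy FVB lungs at right, with white lines between tissues and between gene groups; the colour scale ends at 10. The upper 15 genes are low in tumours and high in nodules and healthy lung, Rpph1 stands in the row below them, and each of the lower 15 genes is lower in every nodule than in the tumour of the same mouse.

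Genes of the lung epithelium accounted for the largest rises. Sftpc, which encodes surfactant protein C and is a defining gene of alveolar type 2 cells, stood at 4.34, 0, 4.11, 14.8 and 20.9 RPKM in the tumours of mice ms9777, ms9780, ms9781, ms9791 and ms9792. In their metastases it stood at 170, 863, 5839, 1666 and 5901 RPKM. Every metastasis was far above every tumour, and mouse ms9777 was the lowest. The difference was 7.94 ± 0.72 on the log2(RPKM + 1) scale (SE, n = 5 pairs, adjusted p = 0.00678 with limma). Healthy lung held 11210 ± 2295 RPKM (SD, n = 4 mice). Sftpb, needed for surfactant films, rose by 6.19 ± 0.57 (adjusted p = 0.00617). The collectins Sftpa1 and Sftpd, which bind microbes in the airspace, rose by 6.07 and 4.97, and Cxcl15, a chemokine of lung epithelium, by 5.19. Lamp3, a protein of the lamellar bodies that store surfactant, rose by 4.09, and Sfta2, a small surfactant-associated secreted protein, by 3.73.

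Of 14 tested genes of the alveolar type 2 list, 6 were called higher, 0 lower and 8 not called, with a median difference of 3.83 against -0.09 over all genes. The list summed to 75.1 to 134 RPKM in tumours, to 348, 1148, 7657, 2258 and 8668 in metastases of the mice in the order above, and to 11940 to 18850 in healthy lungs. Metastases thus held 25.5% ± 24.5 of the healthy lung mean (SD, n = 5 mice). The 2 metastases with the lowest sums were those of mice ms9777 and ms9780. In bulk tissue, a change in the number of cells of a type and a change in RNA per cell cannot be told apart, here or in any result that follows.

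The promoter of Sftpb is shown because it holds matches to CTCAAG, the core recognised by NKX2-1, a factor of lung epithelium known to act on surfactant genes. It lies at chr6:72304360-72304609 on the plus strand of GRCm38.p6 (RefSeq), the 250 bases before the gene's start, and capitals mark the 2 matches, which begin 100 and 15 bases before the start.
Sftpb: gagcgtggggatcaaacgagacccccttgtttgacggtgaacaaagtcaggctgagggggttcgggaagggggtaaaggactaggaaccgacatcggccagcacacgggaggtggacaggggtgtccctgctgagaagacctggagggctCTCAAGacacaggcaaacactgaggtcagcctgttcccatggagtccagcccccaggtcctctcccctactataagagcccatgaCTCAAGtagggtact
Searched on both strands, CTCAAG occurred in 13.3% of 32851 promoters of this length and in 12.5% of the 10723 found for tested genes. It occurred in 7 of the 36 promoters found for genes called higher, and in 3 of the 20 found for genes called lower. These matches are letters in a window, and binding was not measured.

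Alveolar type 1 genes rose as well. Ager, the receptor for advanced glycation end products and a defining gene of these cells, stood at 0.768, 0.498, 1.06, 1.41 and 1.62 RPKM in the 5 tumours in the same order, and at 16.9, 65.6, 210, 79.0 and 206 in the metastases. Again the tissues did not overlap, and the difference was 5.37 ± 0.44 (SE, adjusted p = 0.00356). Hopx, a homeodomain protein without DNA binding of its own, rose by 3.83, Clic5, a chloride channel protein, by 3.30, and Spock2, a proteoglycan, by 2.27. Cav1, the coat protein of caveolae, rose by 1.98 ± 0.33 (adjusted p = 0.0485), a call that was lost without any 1 mouse other than ms9780 (adjusted p from 0.0721 to 0.153). For Cav1 the metastasis of mouse ms9780, at 10.7 RPKM, lay within the tumour range of 7.71 to 15.8. In all, 5 of 9 tested genes of the list were called higher and 0 lower, with a median of 1.98. Aqp5, the water channel often used to mark these cells, stood at 196 RPKM in tumours and 199 in metastases (0.08, adjusted p = 0.935).

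Other epithelial genes among the largest rises were Cldn18 (4.64 ± 0.43), a tight junction claudin of the alveolus, Sec14l3 (4.04 ± 0.36), a lipid-binding protein, and Gprc5a (2.91 ± 0.42), an orphan receptor of lung epithelium, each with its SE. Sec14l3 reached 5.37 to 63.1 RPKM in nodules, where 2 tumours had no read of it and the highest tumour held 0.148. Healthy lung held 490 RPKM.

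**Figure D2:**
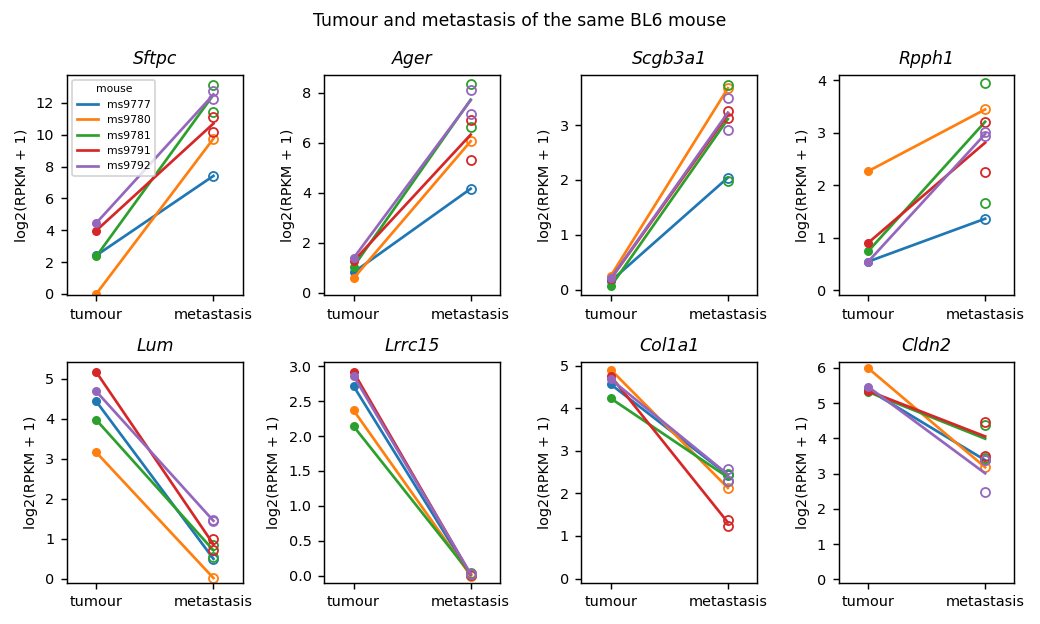
Values of 8 genes as log2(RPKM + 1) in the tumour (filled points) and metastasis of each mouse; open points are single nodules and lines join the tumour to the mean of the nodules, coloured by mouse. Sftpc, Ager, Scgb3a1 and Rpph1 rise and Lum, Lrrc15, Col1a1 and Cldn2 fall in all 5 mice, and the line of mouse ms9777 ends lowest in each of the 4 upper panels.

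Airway genes gave 1 call among 5 tested, with a median of 1.54. Scgb3a1, a secretoglobin of airway secretory cells, stood at 0.118, 0.194, 0.0458, 0.148 and 0.156 RPKM in tumours and at 3.12, 11.7, 7.63, 8.12 and 8.35 in metastases. Its rise of 2.87 ± 0.23 had the smallest adjusted p among the genes called higher, at 0.00135, and rested on 2 to 4 reads per tumour against 91 to 393 per nodule. Healthy lungs held 1.41 to 5.72 RPKM, below the metastases of 4 of the 5 mice. Tumour-adjacent lung of 5 FVB mice with PyMT held 93.4 on average. Airway RNA varied between these lungs, with sums over 12 airway genes from 34430 to 138200 RPKM. Scgb1a1, the main secretory protein of club cells, was not called (6.20 ± 1.03 SE, adjusted p = 0.0681). Its metastases ranged from 34.6 to 3785 RPKM, and the 3785 came from nodule 3 of mouse ms9781, at 7549 RPKM, where nodule 1 held 20.7. Summed over 12 airway genes, metastases held 1.78% ± 3.25 of the level in healthy lung (SD, n = 5 mice), and nodule 3 of ms9781 carried this mean. Mouse ms9781 held 7.59%, and the other 4 mice held 0.119% to 0.516%. With nodule 1 alone for ms9781, the mean was 0.283% ± 0.175.

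Endothelial genes lay above 0 in all 16 tested, and none was called. Their median was 1.36, and 4152 of all 11214 genes lay above 0. Cldn5, the endothelial tight junction claudin, stood at 0.218 to 1.38 RPKM in tumours and 2.94 to 36.2 in metastases without overlap (2.78 ± 0.49 SE, adjusted p = 0.0621). Calcrl, Cdh5 and Eng, an adrenomedullin receptor, the endothelial cadherin and a TGF-beta co-receptor, had differences of 2.42, 1.36 and 1.24 with adjusted p of 0.108, 0.0879 and 0.0893. The 18 genes of the list summed to 55.1, 64.8, 352, 178 and 411 RPKM in metastases, to 31.9 to 53.5 in tumours and to 1854 in healthy lung. Among genes of lung capillary and lung mesenchyme, Ces1d, a carboxylesterase, rose by 2.10 ± 0.25 (adjusted p = 0.00834) and the remaining 7 were not called. Cd36, a fatty acid receptor of capillary endothelium and macrophages, rose by 3.54.

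Among myeloid genes, Ear2, an eosinophil-associated ribonuclease, was 1 of 5 tested alveolar macrophage genes and the only called one of them. It rose by 3.54 ± 0.49 (adjusted p = 0.0271), from 0.252 to 2.15 RPKM in tumours to 2.77 to 87.3 in metastases. None of 18 monocyte and macrophage genes was called. Their complement genes C1qa and C1qb differed by -0.01 and -0.07, while Mmp12, the macrophage elastase, differed by 2.72 ± 0.46 (adjusted p = 0.0583). Mmp12 stood at 1.17, 3.11, 0.98, 1.15 and 1.14 RPKM in tumours and at 3.47, 12.6, 40.9, 13.8 and 25.4 in metastases. The tissues did not overlap, and healthy lung, at 1.69 ± 0.33 RPKM, was like the tumours.

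S100a9, a calcium-binding protein abundant in neutrophils, had the largest difference of the neutrophil list at 4.34 ± 0.73, but its adjusted p was 0.0621. It stood at 6.66, 9.23, 1.85, 6.25 and 7.93 RPKM in tumours and 36.4, 35.0, 206, 230 and 777 in metastases. The metastases of mice ms9781, ms9791 and ms9792 lay above the healthy lungs, which held 41.2 to 201 RPKM, and those of ms9777 and ms9780 below them. S100a8, Retnlg and Ngp, other neutrophil genes, had differences of 2.54, 3.99 and 2.82 with adjusted p of 0.144, 0.161 and 0.121. Lcn2, an iron-carrier binding protein that mammary tumour epithelium makes too, dominated the list at 5377 RPKM in tumours and 7013 in metastases, and 0 of the 11 tested genes were called.

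Healthy lung was compared with BL6 tumours for all called genes. It was at least 2-fold higher for 43 of the 44 genes called higher in metastases, where 12.4% of all tested genes were. Its mean lay above the highest metastasis for 41 of the 44, a share that was not computed over all tested genes. The genes called higher include some chosen here after their values were seen, such as Id1, a BMP-induced inhibitor of transcription factors. Id1 rose by 1.89 ± 0.21 (adjusted p = 0.00678), from 3.91 ± 0.92 RPKM in tumours to 18.2 ± 7.50 in metastases, and healthy lung held 108. The cell cycle inhibitor Cdkn2b, chosen likewise, rose by 1.28 ± 0.21 (adjusted p = 0.0326), and its metastasis levels of 5.34 to 14.7 RPKM lay below the 16.1 of healthy lung. The lists for mesothelium and acute phase held 1 call each. Msln, the mesothelial surface protein mesothelin, rose by 1.69 but reached 0.688 to 8.99 RPKM in nodules, and Icam1, an adhesion receptor for leukocytes, rose by 2.61 ± 0.37 (adjusted p = 0.0262). The part of lung tissue in these rises was not tested gene by gene.

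Rpph1 was the gene called higher that did not have a higher level in healthy FVB lung. It encodes the RNA subunit of ribonuclease P, which trims transfer RNA precursors. It stood at 0.458, 3.81, 0.668, 0.865 and 0.454 RPKM in tumours, at 1.57, 9.89, 8.25, 6.02 and 6.87 in metastases and at 0.630 ± 0.443 in healthy lung (SD, n = 4). All 5 mice were higher in the metastasis, and the metastasis of ms9777 lay below the tumour of ms9780. The difference was 1.76 ± 0.27 (SE, adjusted p = 0.0271). The call was lost without ms9781, ms9791 or ms9792 (adjusted p of 0.109, 0.110 and 0.104), without the mouse block (0.105), with no filter on low values (0.176), with the lower-numbered nodule only (0.063) and with nodule 1 alone for ms9781 (0.0539). It was kept in 9 of 16 alternatives that used the paired libraries alone. It rested on 4 to 27 reads in tumours and 23 to 157 in nodules, and nodules 1 and 3 of mouse ms9781 differed, at 2.17 and 14.3 RPKM. Rmrp, the related RNA of ribonuclease MRP, was higher in 5 of 5 mice without passing the test (1.94 ± 0.46, adjusted p = 0.144), as was the small nucleolar RNA Snord17 (1.03 ± 0.29, adjusted p = 0.196). In the list of small structured RNAs 1 of 5 tested genes was called, with a median of 1.03, and Snora74a, a further small nucleolar RNA, lay below 0 (-0.37). Summed over 10 genes of this list, tumours held 37.2 to 49.5 RPKM, metastases 45.4 to 67.4 and healthy lungs 25.3 to 52.3. Tumour-adjacent FVB lungs ranged more widely, from 18.0 to 182.5 RPKM, so a part of lung in the rise of Rpph1 was not tested. These transcripts lack the poly(A) tail of messenger RNA.

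The largest falls were in genes of fibroblast matrix. Lum, lumican, stood at 20.5, 7.91, 14.6, 34.8 and 24.6 RPKM in the tumours and at 0.411, 0.0129, 0.635, 0.816 and 1.73 in the metastases of mice ms9777, ms9780, ms9781, ms9791 and ms9792. All metastases were below all tumours, and the tumour mean was 28.5 times the metastasis mean in RPKM. The difference of -3.57 ± 0.22 (SE) had the smallest adjusted p of all genes, at 0.000574. The healthy lungs, at 2.22 to 3.17 RPKM, lay above every metastasis. Decorin, Dcn, fell by 2.34 ± 0.27 (adjusted p = 0.00832), from 28.8 ± 13.1 RPKM in tumours to 5.01 ± 3.06 in metastases (SD, n = 5), although healthy lung held 62.3.

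Several markers of fat cells, though not all, were also lower in metastases than in tumours. Cfd, adipsin, stood at 2.90, 0.251, 5.68, 7.84 and 30.6 RPKM in the tumours and at 0.0233, 0, 0.294, 0.258 and 0.0562 in the metastases of the mice in the same order. Car3, a carbonic anhydrase abundant in fat cells, stood at 1.56, 0.278, 4.39, 4.52 and 17.8 RPKM in tumours and at 0 to 0.192 in metastases, without overlap. Adipoq, adiponectin, stood at 0.0217 to 4.59 RPKM in tumours and 0 to 0.0723 in metastases. These 3 genes were the only ones of the adipocyte list lower in 5 of 5 mice. The tumour of ms9780 was the lowest and that of ms9792 the highest for each. They are among 11 of the 14 adipocyte genes that did not pass the filter on low values and so have no test, and 9 of the 11 had a lower mean in metastases. The means of Pparg and Ucp1, also untested, were higher in metastases. The 3 tested genes, Fabp4, Lpl and Scd1, are made by other cells too and were not called. Fabp4 differed by -0.90, while Lpl differed by 1.24 (higher in 5 of 5 mice) and Scd1 by 0.66 (higher in 4 of 5). The list summed to 61.4 to 301 RPKM in tumours and 98.4 to 386 in metastases, most of it Scd1. This sum was higher in the metastases of 4 of 5 mice. The part of mammary fat in the falls of matrix genes was not tested.

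Type I collagen fell in both of its chains. Col1a1 stood at 22.7, 29.1, 17.9, 26.1 and 24.7 RPKM in tumours and at 4.40, 3.38, 4.21, 1.49 and 4.45 in metastases. Its difference was -2.49 ± 0.24 (SE, adjusted p = 0.00328). Col1a2 stood at 39.0, 36.2, 27.9, 47.4 and 49.2 in tumours and at 6.99, 4.30, 11.0, 3.79 and 11.5 in metastases, a difference of -2.35 ± 0.28 (adjusted p = 0.00834). The tissues did not overlap in either chain, and mouse ms9791 had the lowest metastasis in both. Healthy lung, at 10.4 and 27.3 RPKM, was above all 5 metastases.

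The promoter of Col1a2 is shown because type I collagen genes are known to carry a CCAAT box near their start. It lies at chr6:4505368-4505617 on the plus strand of GRCm38.p6 (RefSeq), the 250 bases before the start, and capitals mark the match, which begins 109 bases before the start.
Col1a2: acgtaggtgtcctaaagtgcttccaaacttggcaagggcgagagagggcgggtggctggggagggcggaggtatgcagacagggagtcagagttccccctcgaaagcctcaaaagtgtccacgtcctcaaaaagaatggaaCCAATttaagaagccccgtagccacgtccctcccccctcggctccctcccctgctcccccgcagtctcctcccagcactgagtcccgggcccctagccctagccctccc
On both strands CCAAT occurred in 33.9% of the 32851 promoters, in 5 of the 20 found for genes called lower and in 11 of the 36 found for genes called higher. Its share among the genes called lower was thus not above that of all promoters or of the 10723 found for tested genes (35.2%). TATAAA was searched too, without a test. It occurred in 5 of the 20 promoters, in 3 of the 36, in 12.4% of all promoters and in 6.45% of those of tested genes.

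Of 21 tested genes for fibrillar collagen and its processing, 4 were called lower, 0 higher and 17 not called. The median difference was -0.47. The other called members were Col8a1 (-1.69), a short-chain collagen, and Col12a1 (-1.58), which decorates type I fibrils. Collagen III, a member of the list, and periostin, a matricellular protein of the next one, had large differences without passing the test and are named here after their values were seen. Col3a1 differed by -1.93 ± 0.44 (adjusted p = 0.130), and its metastasis values reached 54.3 RPKM in nodule 1 of mouse ms9781, above 2 of the tumours. Postn differed by -2.15 ± 0.49 (adjusted p = 0.130), and mouse ms9777, at 76.8 RPKM in the tumour and 85.9 in the metastasis, went the other way. P4ha1, a prolyl hydroxylase that modifies collagen chains, had a difference of 0.66 ± 0.17 (adjusted p = 0.144) and was higher in 5 of 5 mice.

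Among 26 small leucine-rich proteoglycan and matricellular genes, 4 were called lower, 1 higher and 21 not called, with a median of -0.10. Besides Lum and Dcn these were Cilp (-2.74 ± 0.22), a cartilage intermediate layer protein, and Thbs2 (-2.11 ± 0.24), a thrombospondin. Cilp was at 4.5 to 12.4 RPKM in tumours and 0.0302 to 0.727 in nodules, and healthy lung held 0.163. Fbln5, which assembles elastic fibres, was the one called higher (1.44 ± 0.24, adjusted p = 0.0386), from 3.20 ± 1.13 to 11.4 ± 5.93 RPKM, with 22.1 in healthy lung. Sparc, an abundant collagen-binding protein named after its values were seen, differed by 0.24 (adjusted p = 0.741).

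Lrrc15, a membrane protein that marks a class of tumour fibroblasts, stood at 5.57, 4.17, 3.41, 6.55 and 6.28 RPKM in tumours. Metastasis nodules held 0 to 0.0285 RPKM, which was 0 to 7 reads per nodule against 685 to 1404 per tumour. Its level in healthy lung, 0.0187 RPKM, was also near 0. The difference was -2.59 ± 0.19 (SE, adjusted p = 0.00110) on the log2(RPKM + 1) scale, which understates the change of a gene this low. C1qtnf3, a secreted C1q-like protein, fell by 2.96 ± 0.23 (adjusted p = 0.00135) and Mmp3, stromelysin, by 1.53 ± 0.26 (adjusted p = 0.0362). These 3 were the called ones of 22 fibroblast markers, and Pi16, a marker of adventitial fibroblasts, missed the threshold (-1.48, adjusted p = 0.0528). The median of the list was -0.17, near the -0.09 of all genes. Its 26 genes summed to 98.5 to 159 RPKM in tumours, 81.4 to 217 in metastases and 365 to 446 in healthy lungs.

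Other extracellular proteins among the largest falls were Cpxm2 (-2.26 ± 0.21), a carboxypeptidase-like protein, and Thbs4 (-1.90 ± 0.25), a further thrombospondin. Smoc1, a calcium-binding basement membrane protein, and Cthrc1, a secreted protein of matrix-forming fibroblasts, were called lower too (-1.58 and -1.52) and were named after their values were seen. Cpxm2 varied little between tumours, at 5.94 to 7.38 RPKM, and stood at 0.0877 to 1.5 in nodules. Of all 29 genes called lower, healthy lung was at least 2-fold below BL6 tumours in 19, where 18.5% of all tested genes were, and at least 2-fold above them in 1.

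**Figure D3:**
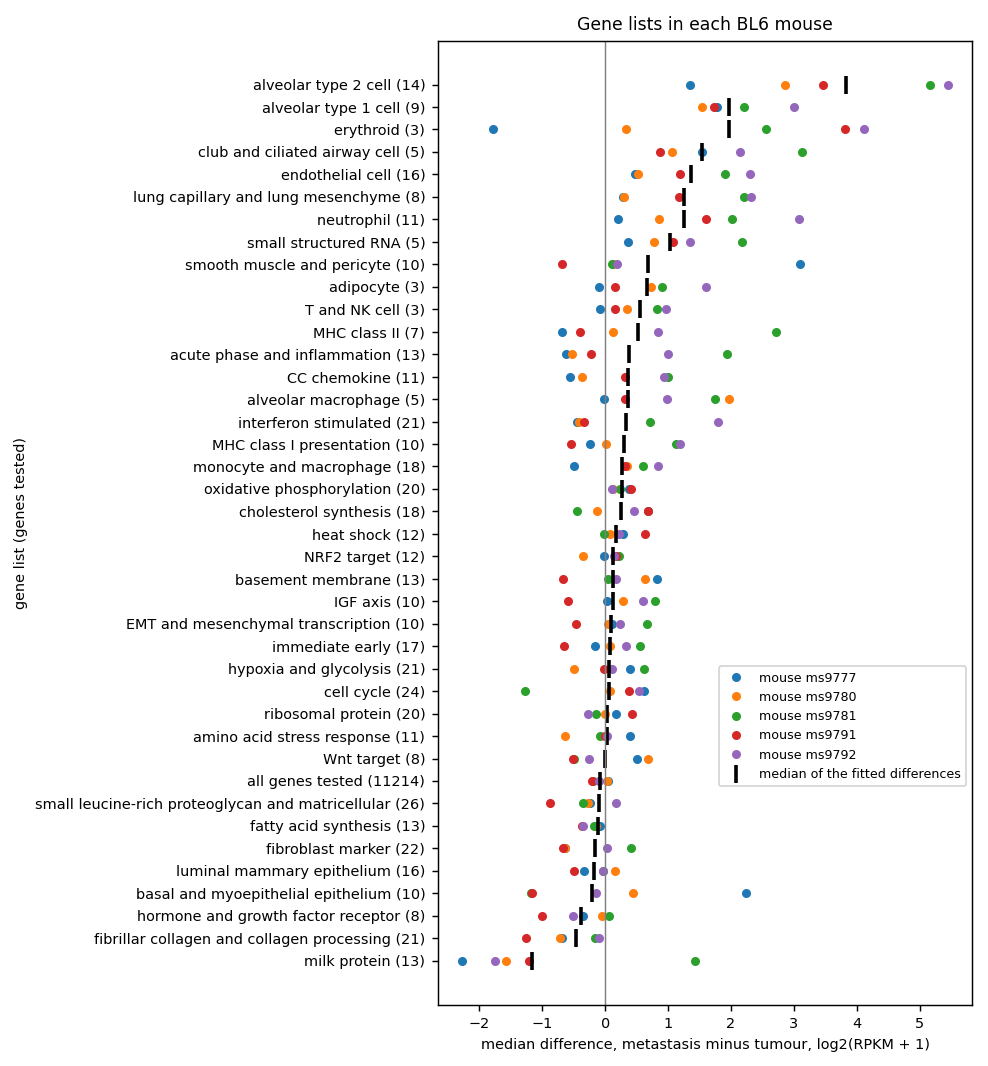
Median difference of metastasis minus tumour in log2(RPKM + 1) for each gene list with at least 3 tested genes, coloured points for each of the 5 mice and black bars for the median of the fitted differences; numbers in brackets are genes tested. Lung epithelial lists lie to the right in all 5 mice, milk protein genes lie left in all mice but ms9781, and mouse ms9777 stands far to the right for smooth muscle genes.

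Genes outside the matrix fell too. Cldn2, a claudin that forms cation-permeable junctions in epithelium, stood at 40.7, 62.8, 39.0, 39.7 and 43.2 RPKM in tumours and at 9.41, 8.04, 14.9, 15.6 and 7.04 in metastases. The tissues did not overlap, and the difference was -1.98 ± 0.24 (SE, adjusted p = 0.0103). Healthy lung held 0.387 RPKM. Padi2, an enzyme that turns arginine into citrulline in proteins, fell by 1.90 ± 0.32 (adjusted p = 0.0386), and its tumour of mouse ms9780, at 3.52 RPKM, lay within the metastasis range. The same mouse had the lowest tumour level of C4b, complement component 4, which fell by 1.83 ± 0.27 (adjusted p = 0.0262). Vtcn1, the immune checkpoint ligand B7-H4, and Asrgl1, an asparaginase, fell by 1.35 and 1.20 and were chosen after their values were seen. Asrgl1 stood at 35.3 to 47.1 RPKM in tumours and 10.2 to 23.8 in nodules.

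Ccl8, a monocyte-attracting chemokine made by macrophages, stood at 26.3, 7.69, 30.4, 19.4 and 37.6 RPKM in tumours and at 1.13, 1.04, 16.6, 1.53 and 4.65 in metastases. It was lower in 5 of 5 mice, least so in ms9781, and fell by 2.48 ± 0.37 (adjusted p = 0.0284). It was the only 1 of 11 tested CC chemokines called. Ccl17, a ligand of CCR4 on T cells, was higher in 5 of 5 mice without passing the test (2.70 ± 0.64, adjusted p = 0.146), at 1.97 to 2.32 RPKM in the metastases of ms9777 and ms9780 and 59.3 and 33.6 in those of ms9781 and ms9792. Saa1, an acute phase protein, stood at 59.3 to 455 RPKM in tumours and 5.35 to 73.3 in metastases (-2.62 ± 0.48, adjusted p = 0.0741).

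Tumour epithelial programmes gave no call. None of 16 luminal mammary genes passed the test, with a median of -0.19 and a range from -0.90 to 0.63. The lowest was Gata3, a transcription factor of luminal cells, at 29.4 ± 5.56 RPKM in tumours and 16.1 ± 6.89 in metastases (SD; adjusted p = 0.204). Elf5, which drives the milk-secreting lineage, was lower in 5 of 5 metastases (-0.65 ± 0.21 SE, adjusted p = 0.248). Among 13 milk protein genes 0 were called and 11 lay below 0, with a median of -1.16. The per-mouse medians were -2.27, -1.58, 1.42, -1.21 and -1.75, so mouse ms9781 went the other way from the other 4. Its tumour had the lowest milk protein sum, 2207 RPKM, where the tumour median was 12070. Csn1s2a, a casein, and Wap, whey acidic protein, each fell short of the threshold (-2.43 and -1.73, adjusted p = 0.201 and 0.299).

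Among 24 cell cycle genes 0 were called, 15 lay above 0 and the median was 0.06. In mouse ms9781 the median was -1.28, and in the other 4 mice it ran from 0.07 to 0.61. The cell cycle sum was highest in 1 tumour, at 761 RPKM, against a tumour median of 382 and metastases of 315 to 583. Plk1, a mitotic kinase, differed by 0.31 ± 0.22 (adjusted p = 0.560). Healthy lung held 93.6 RPKM of this list. Hypoxia and glycolysis genes had a median of 0.06 over 21 tested, with no call, and the nearest was Ankrd37, a target of hypoxia-inducible factor (1.12 ± 0.20, adjusted p = 0.0534, higher in 5 of 5 mice). The receptor kinase Erbb3, partner of Erbb2, was lower in 5 of 5 metastases without overlap (-0.93 ± 0.28, adjusted p = 0.225).

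Of the remaining lists, none held a called gene. Oxidative phosphorylation lay above 0 in 18 of 20 genes with a median of 0.27, cholesterol synthesis in 15 of 18 with 0.26, and ribosomal proteins in 13 of 20 with 0.03. Interferon-stimulated genes had a median of 0.34, with 1.80 in mouse ms9792 and -0.44 in ms9777. Ifit3, one of them, stood at 10.0 and 184 RPKM in nodules 2 and 3 of mouse ms9792. MHC class I and class II lists had medians of 0.29 and 0.52, and basement membrane genes 0.13, with Col4a1, a chain of collagen IV, at 1.35 ± 0.28 (adjusted p = 0.0881). Vim, the mesenchymal filament protein vimentin, led the list of epithelial to mesenchymal transition (1.40 ± 0.31, adjusted p = 0.103), and Igfbp2, which binds insulin-like growth factors, the IGF list (1.65 ± 0.34, adjusted p = 0.0879). Healthy lung held more of both, at 269 and 272 RPKM, than the metastasis means of 145 and 34.9. Haemoglobin was higher in 4 of 5 metastases, with Hbb-b1 at 900 RPKM against 197 in tumours and 9939 in healthy lung (adjusted p = 0.417). The part of blood in the other results was not tested.

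The mice differed in the size of the rises and falls. The median difference over the 44 genes called higher was 1.52 in ms9777, 1.87 in ms9780, 2.77 in ms9781, 1.85 in ms9791 and 3.01 in ms9792. Over the 29 genes called lower it was -1.72, -1.54, -1.38, -2.42 and -2.0 in the same order. The mouse with the smallest rise, ms9777, was therefore not the one with the smallest fall, which was ms9781. Since these genes were chosen by the same values, the medians are a description only.

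The metastasis of mouse ms9777 was nearest to the tumours. Across genes it correlated with the 5 tumours at r = 0.936 to 0.949 and with the other metastases at 0.858 to 0.915, where genes are not independent replicates. It also held far more RNA of contractile genes, and whether smooth muscle or myoepithelium made it was not tested. Acta2, smooth muscle actin, stood at 23.4 RPKM in its tumour and 411 in its metastasis, against 7.70 to 45.5 in the nodules of the other mice, and Tagln, transgelin, at 22.5 and 179. The smooth muscle and pericyte list summed to 782 RPKM there, to 36.9 to 107 in the other metastases and to 144 to 231 in healthy lungs. The basal and myoepithelial list summed to 644 RPKM there against 23.9 to 283, but 3 of its genes (Acta2, Cnn1 and Mylk) are in the smooth muscle list too and made up 512 of the 644. Without these 3, the sum was 132 RPKM in the metastasis of ms9777, 249 in that of ms9780 and 12.6 to 55.6 in the others, so ms9780 was the highest. The tumours of ms9777 and ms9780 held less, 39.5 and 57.9, and those of the other mice more, 52.2 to 197. The median difference over the basal list was 2.24 in ms9777 and -1.19 to 0.44 in the other mice. Krt17, a basal keratin, stood at 19.8 RPKM in the metastasis of ms9777 and 105 in that of ms9780. None of the 10 tested genes of either list was called over the 5 mice (Mylk, the kinase of smooth muscle myosin, 0.94, adjusted p = 0.437).

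Sister nodules of a mouse were compared in ms9781, ms9791 and ms9792, with 1 library per nodule and no test. They differed by at least 2-fold on log2(RPKM + 1) in 12.5% of the 11214 genes in ms9781, in 3.01% in ms9791 and in 4.60% in ms9792. Nodule 3 of ms9781 stood apart, with r from 0.812 to 0.923 with all other libraries. The lung genes set the nodules apart in size. Sftpc stood at 2735 and 8943 RPKM in nodules 1 and 3 of ms9781, at 2177 and 1154 in those of ms9791, and at 6937 and 4866 in nodules 2 and 3 of ms9792. Falls were closer: Col1a1 stood at 3.88 and 4.53 in ms9781, at 1.61 and 1.37 in ms9791 and at 4.99 and 3.90 in ms9792.

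All 29 genes called lower were below the tumour in each of these 6 nodules. All 44 genes called higher were above it in 5 nodules and 43 in nodule 3 of ms9781. The median over genes called higher was 2.24 and 3.16 in the nodules of ms9781, 2.23 and 1.46 in ms9791, and 3.29 and 2.75 in ms9792. Over genes called lower it was -1.68 and -1.60, -2.45 and -2.30, and -2.08 and -2.06. The genes were called on the means of these same nodules, so these counts and medians follow in part from that choice. They are a description only, and the matching shares over all tested genes were not computed.

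**Figure D4:**
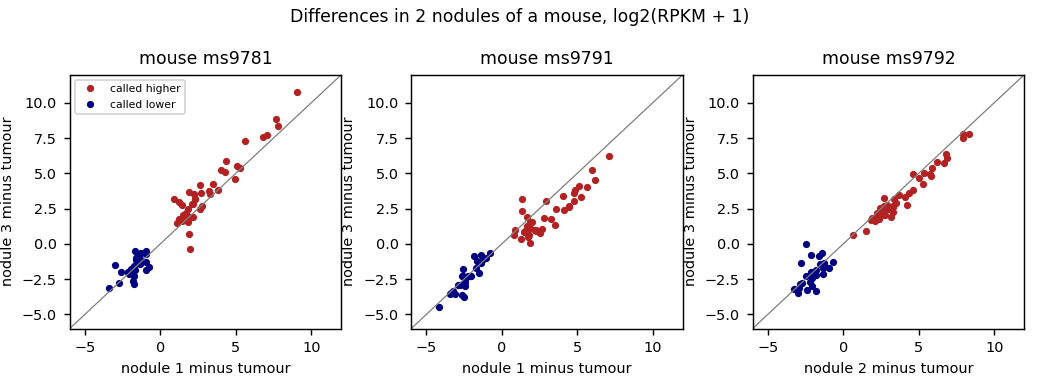
Difference from the tumour of the same mouse in log2(RPKM + 1) for the lower-numbered nodule (x axis) and the higher-numbered nodule (y axis) of 3 mice, red for the 44 genes called higher and blue for the 29 called lower, with a grey line where both nodules are equal. Red points lie mainly above the line in ms9781 and below it in ms9791 and ms9792, and all blue points lie below 0 on both axes.

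The same contrast was measured in MMTV-PyMT mice of the FVB and BL10 backgrounds, and the difference between strains was tested for each gene. Against FVB (12 mice), 0 of 12197 genes were called with limma, or 0.0%, 571 had an unadjusted p under 0.05, and the smallest adjusted p was 0.536. Against BL10 (6 mice), 0 of 11979 genes were called, or 0.0%, 760 had an unadjusted p under 0.05, and the smallest adjusted p was 0.743. Strain and library name series largely coincide, so these cannot be told apart.

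Directions were shared by most genes called in BL6. Of the 44 genes called higher, 44 had a mean difference above 0 in FVB, where 33.0% of all tested genes did, and 43 in BL10, where 40.0% did. Of the 29 genes called lower, 29 lay below 0 in FVB (67.0% of tested genes) and 29 in BL10 (60.0%). In every single mouse of FVB, 30 of the higher and 4 of the lower genes kept their direction, where 0.847% of tested genes lay above 0 and 0.437% below 0 in every mouse. In every single mouse of BL10, 32 and 18 did, where 4.95% and 9.96% of tested genes did. Median differences over the higher genes were 2.10 in BL6, 1.81 in FVB and 1.98 in BL10, and over the lower genes -1.79, -1.09 and -1.46. Since the genes were chosen on the BL6 values, nothing is read from their larger size in BL6.

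Lum fell in all 3 strains, with differences of -2.90 ± 1.70 (SD, n = 12) in FVB and -3.39 ± 1.19 (SD, n = 6) in BL10. It was lower in every mouse of both. The BL6 difference minus that of FVB was -0.67, with a 95% interval from -2.20 to 0.85, and minus that of BL10 -0.19, from -1.27 to 0.90. Lrrc15 was lower in 12 of 12 FVB and 6 of 6 BL10 mice, by 1.78 and 1.31 on average. Its BL6 difference minus that of BL10 was -1.28 (interval -2.08 to -0.48, adjusted p = 0.743 with limma), and BL10 tumours held 0.649 to 5.24 RPKM of it. Col1a1 was lower in 9 of 12 FVB mice and 6 of 6 BL10 mice. Cldn2 was lower in only 7 of 12 FVB mice and in 6 of 6 BL10 mice, with mean differences of -0.80 ± 1.68 and -1.32 ± 0.79 (SD), and its BL6 difference minus that of FVB was -1.18 (interval -2.71 to 0.34).

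Rpph1 did not follow the lung genes across strains. It was higher in 6 of 12 FVB metastases, with a mean difference of 0.20 ± 0.93 (SD), and in 1 of 6 BL10 metastases, with -0.44 ± 1.42. The BL6 difference exceeded that of FVB by 1.56 ± 0.44 (SE, interval 0.63 to 2.49) and that of BL10 by 2.20 ± 0.61 (interval 0.88 to 3.53), and neither passed the test over all genes with limma (adjusted p = 0.904 and 0.743). Scgb3a1 rose in all 12 FVB and all 6 BL10 mice, with mean differences of 1.89 and 1.64. Mmp12 was higher in 6 of 6 BL10 mice (3.05 ± 1.64, SD) and in 7 of 12 FVB mice (0.63 ± 1.35), and its BL6 difference minus that of FVB was 2.08 ± 0.66 (SE, interval 0.70 to 3.47, adjusted p = 0.998 with limma). S100a9 was higher in 12 of 12 and 6 of 6 mice, with mean differences of 3.22 and 4.60.

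The alveolar type 2 list had the highest median of all lists in each of the 3 strains, 3.83 in BL6, 3.70 in FVB and 3.47 in BL10, and the endothelial list 1.36, 0.96 and 1.75. Small structured RNA had 1.03, 0.20 and 0.01. Milk protein genes had -1.16 in BL6, -0.14 in FVB and 0.16 in BL10, and interferon-stimulated genes 0.34, -1.01 and -0.14. Differences between strains were not tested for lists.

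**Figure D5:**
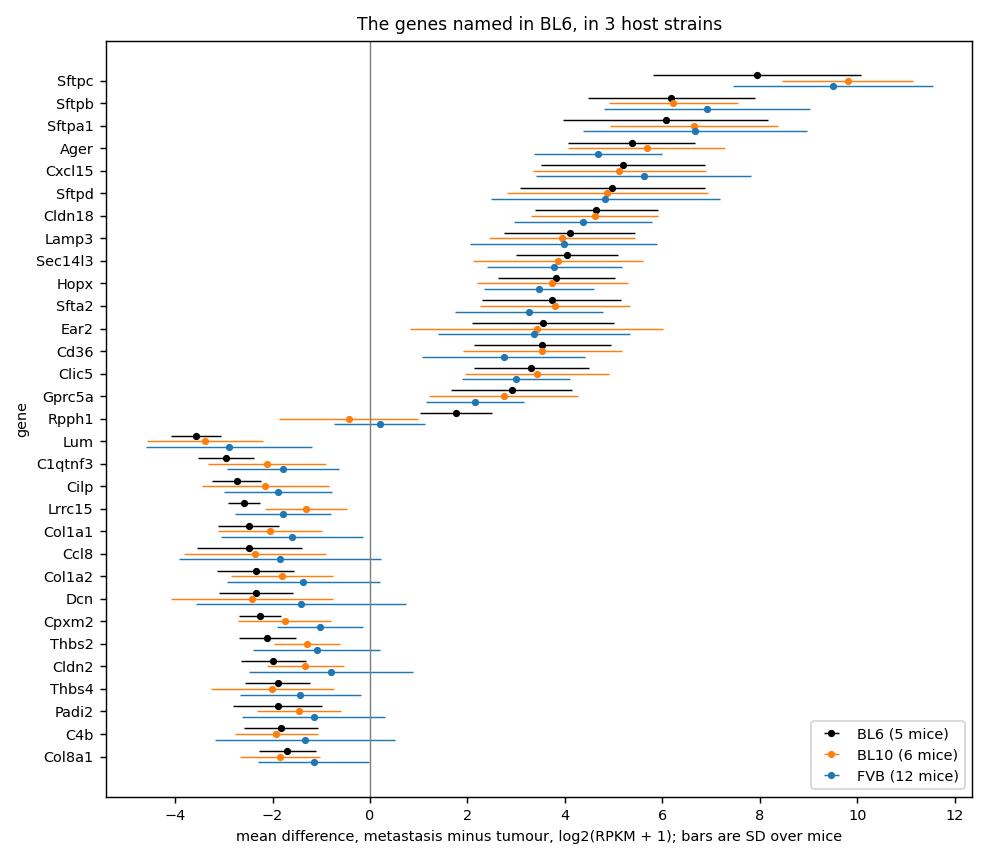
Mean difference of metastasis minus tumour in log2(RPKM + 1) for 31 genes named in BL6, with bars of 1 SD over mice, in BL6 (5 mice, black), BL10 (6 mice, orange) and FVB (12 mice, blue). The means of the 15 upper genes lie right of 0 and those of the 15 lower genes left of 0 in all 3 strains, and Rpph1 stands at 1.76 in BL6, 0.20 in FVB and -0.44 in BL10.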

How the data were processed

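RNA from flash-frozen tissue was extracted with TriPure and made into mRNA libraries for a HiSeq2500 (TruSeq v4), as the labels' protocols state. The submitters' processing notes name TopHat, mm9 and DESeq2 without versions or order. The authors deposited RPKM values in a single table of 20188 genes and 335 libraries. How the RPKM denominator was set is not given in the sources used here. The steps of low values gave the whole reads behind 18669 genes, with 99.96% of their values within 0.01 reads of a whole number, and so each library's total of counted reads. Among 78 pairs of BL6 libraries 0 held identical values.

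RPKM of the nodules of a mouse were averaged, 1 was added and log2 was taken. The fit covered genes reaching 1 RPKM in 5 or more of 10 profiles and used limma 3.58.1 (R 4.3.3) with trend and robust moderation and the mouse as a block. Strain tests compared per-mouse differences. Called genes had a Benjamini-Hochberg adjusted p below 0.05. Intervals are at 95%. On simulated data of the same size the fit recovered 39 of 100 genes changed 2-fold and 87 of 100 changed 4-fold, with 3 false calls among 11214 genes. The changed genes there averaged at least 5 RPKM and changed equally in every mouse, and the noise was independent between genes. These shares may therefore not hold for the measured data.

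Pairing came from the same mouse number in both titles. Same-numbered deviations from the group means correlated above 0.1 in 2 of 5 mice, from -0.31 to 0.55, and 1 of 5 tumours correlated best with the metastasis of its own mouse.

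Named genes passed the test, changed at least 2-fold in the same direction in all 5 mice, and averaged at least 5 RPKM in the higher tissue. The 15 largest rises, the 15 largest falls and up to 10 rises of genes that healthy lung held at less than 2 times the tumour level were taken, predicted genes aside. From each of 43 gene lists up to 4 members with the smallest p and all called members could be named. The members and lists were chosen with earlier results of these data known. Promoters came from RefSeq. Alternatives were other pseudocounts, filters and scalings, single nodules, fits without the block or a mouse, and, chosen after seeing the data, the unpaired libraries as a pair, 1 nodule for mouse ms9781, and limma's voom on the recovered reads. Figures were drawn with matplotlib 3.10.9.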

Additional observations from a re-analysis of the deposited data

Results flagged for a closer look

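In 7 of 132 sets of 5 mice, taken from the named genes and the gene lists, 1 mouse lay far from the other 4. Chance gives about 1 in 20, so the count is near the chance share and nothing is read from it. The sets also overlap, since Acta2 and Tagln belong to the smooth muscle and pericyte list. Mouse ms9777 was the far one in 4 of the 7 sets. Its log2(RPKM + 1) difference was 4.08 for Acta2 and 2.94 for Tagln, and its median over the smooth muscle and pericyte list was 3.105. For Scgb3a1 its difference of 1.88 was the smallest of the 5. Mouse ms9781 was the far one in the other 3. Its median difference was -1.28 over the cell cycle list and 1.42 over the milk protein list. For the B cell and plasma cell list, where only the stress and secretory gene Xbp1 was tested, it was 1.15.

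Both unpaired libraries held a signal that goes against their titles. Lum stood at 20.9 RPKM in the library titled as a metastasis of mouse ms9783, where the paired metastasis nodules held at most 1.75. Sftpc stood at 607 RPKM in the unpaired library titled as a tumour, where the paired tumours held at most 20.9.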

How the results depend on the processing

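All 73 called genes kept their direction under every alternative in which they were tested. For many alternatives this was fixed in advance, since each gene moved the same way in all 5 mice. These were the paired fits without 1 mouse and those with other pseudocounts or filters. The fits of the same 5 pairs without the block, or without trend and robust moderation, were fixed likewise. The count of 73 (44 higher, 29 lower) became 2 (0 higher, 2 lower) with no filter on low values, which tested 17704 genes, and 28 (17 and 11) at 5 RPKM or more, where 36 of the 73 were tested. It became 0 (0 and 0) without the replicate block with both unpaired libraries added as titled. It was also 0 (0 and 0) with them as a sixth pair, each with its tissue as titled, although both libraries went against their titles. limma's voom on recovered reads called 145 (109 higher, 36 lower), 68 of them shared. Without the replicate block 65 were called (42 higher, 23 lower), 48 of them shared; the same numbers mark the same mice. Leaving out 1 mouse gave 25 to 156 calls, 15 to 105 higher and 10 to 51 lower. The remaining settings gave 55 to 92 calls. With RPKM rescaled to the median ratio, the median difference of all genes moved from -0.09 to 0.00 and 66 genes were called (44 higher, 22 lower). Strain tests called 0 genes in every alternative, with 282 to 868 genes at an unadjusted p under 0.05 against FVB and 500 to 954 against BL10. For 89 named genes, 1661 values under alternatives were computed: 261 lost a call, 72 gained one, and 3 turned direction. Leaving out 1 mouse, Acta2 ranged from -0.10 (without ms9777) to 1.16; Plk1 differed by -0.0036 with the higher-numbered nodule only, and Ifit3 by -0.42 with the lower-numbered nodule only. Of 816 list medians, 15 moved by 1 SD over mice or more. Depth limits values of a few reads, such as Lrrc15 in metastases.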

Other observations

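Cell populations with few tested genes are given as values only. T and NK cell genes summed to 5.42 to 9.47 RPKM in tumours and to 4.98, 6.67, 29.2, 13.5 and 25.8 in the metastases of mice ms9777, ms9780, ms9781, ms9791 and ms9792, where healthy lung held 72.4. Only 3 of 14 measured genes passed the filter, and 0 were called. Erythroid genes summed to 208 to 1140 RPKM in tumours and to 309, 565, 2933, 3502 and 5332 in metastases, against 44270 in healthy lung. Skeletal muscle genes stayed at 8.60 to 20.6 RPKM in tumours and 7.87 to 33.0 in metastases. Mesothelial genes summed to 76.8 to 167 RPKM in tumours and to 51.9 to 253 in metastases, of which Krt19, also a keratin of tumour epithelium, was the main part (128 and 94.5 RPKM on average).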
